A study of Rattus norvegicus with 12 samples.

Results

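Expression of 9 genes that mark endothelial cells and pericytes was examined in neuron-enriched cultures of rat cerebellum, with and without exposure to acetamiprid (ACE), a neonicotinoid insecticide. The genes are Pecam1, Cldn5, Flt1, Kdr, Tek, Tie1, Vwf, Pdgfrb and Rgs5. They were chosen by name from the gene symbols printed in the array files, and they account for 10 of the 30367 probes and 9 of the 25885 gene names on the array. Vwf has 2 probes and each of the others has 1.

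Brain capillaries are built from endothelial cells, which line the vessel and seal it with tight junctions, and from pericytes, which wrap around it. Growth and stability of the lining depend on VEGF acting on the receptor tyrosine kinases Kdr and Flt1, and on angiopoietins acting on Tek, which pairs with the orphan receptor Tie1. Pericytes are recruited by PDGF-B released from the endothelium, which binds Pdgfrb on their surface. None of these genes is wholly private to the vessel, and Pdgfrb, for example, is also made by fibroblasts.

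The cultures came from the cerebella of newborn Sprague-Dawley rats, the pups of 1 litter being pooled for each culture experiment and dissociated with papain. In 6 independent experiments, 1 lot of cells was split between a control culture that received the solvent dimethyl sulfoxide (DMSO) and a culture that received ACE at 1 µM in the same solvent. Both were grown on poly-L-lysine and laminin, first with a little fetal serum and later in serum-free medium, and RNA was taken at 16 days in vitro. Each RNA was labelled with 1 dye and hybridised to 1 array, which gives 6 control and 6 ACE arrays whose replicate numbers 1 to 6 mark the shared cell lot. These are pooled pups in mixed cultures, so that fewer vessel cells and less RNA per vessel cell cannot be told apart, and the number of arrays limits the precision. On every slide the control hybridisation used place 1 and its ACE partner place 3, so position and exposure cannot be told apart.

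The arrays carried 42877 gene spots each. Between 75.4% and 91.0% of the gene spots were well above background, which is the scanner software's flag for a signal clearly over its local background. Neuronal genes were present: 4 of the 5 neuronal markers on the array (Tubb3, Snap25, Gap43 and Eno2) were well above background on all 12 arrays, as were all 6 astrocyte markers and all 8 microglial markers. Vessel genes outside the 9 were also measured. Of these, 15 of 20 further endothelial genes and 8 of 12 further pericyte genes were well above background on all 12 arrays. A gene is counted here if any of its probes was, and 66.5% of all probes on the array were.

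What a probe can show depends on its sequence, and probes are therefore shown for the genes that were dim, varied most between arrays or had estimates of both signs, 5′ to 3′ as the files print them. The lower-case letters are the whole 60-base probe, with no base singled out. Positions are those of the array design on the rn4 build.
Flt1, 12:7957094-7957153, plus strand: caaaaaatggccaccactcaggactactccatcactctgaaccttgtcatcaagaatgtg
Tek, 5:115178576-115178635, plus strand: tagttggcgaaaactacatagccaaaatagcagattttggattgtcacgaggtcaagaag
Tie1, 5:138950263-138950322, minus strand: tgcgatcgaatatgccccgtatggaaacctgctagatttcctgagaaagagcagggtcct
Cldn5, 11_random:1224740-1224799, minus strand: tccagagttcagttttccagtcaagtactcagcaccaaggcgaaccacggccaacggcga
Vwf (A_64_P114913), 4:161854554-161854613, plus strand: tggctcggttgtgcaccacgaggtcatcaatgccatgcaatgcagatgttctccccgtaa
Rgs5, 13:85480542-85482176, plus strand: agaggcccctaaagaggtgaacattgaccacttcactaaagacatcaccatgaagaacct
The Rgs5 probe is 60 bases long but spans 1635 bases of the genome, so its match runs across an intron. The other Vwf probe (A_64_P136501) lies on the same strand of chromosome 4, 88 bases beyond the end of the first, at 161854702 to 161854761. The probes of Pecam1 (chromosome 10, 96056219 to 96056278) and Pdgfrb (chromosome 18, 57053387 to 57053446) are each placed in 1 block, and the Kdr probe has no position in the design.

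Of the 10 probes, 6 were well above background on all 12 arrays: those of Pecam1, Kdr, Tie1 and Pdgfrb and both of Vwf. Over the whole array, 20181 of 30367 probes (66.5%) were. Flt1 was well above background on 4 of 6 control and 6 of 6 ACE arrays, and Rgs5 on 4 of 6 and 3 of 6. Cldn5, the main claudin of brain endothelial tight junctions, reached it on 2 of 6 arrays in each group, both times those of replicates 1 and 3. Tek, the angiopoietin receptor, reached it on 0 of 12 arrays. With the looser flag of a signal significantly above background, 8 probes were detected on all 12 arrays, Flt1 and Rgs5 being the ones added, and Tek was still detected on none. Arrays of replicates 4, 5 and 6, on which the dim probes were most often missed, were also the dimmest: the 75th percentile of signal was 1803 to 2428 there and 2805 to 4384 on the arrays of replicates 1 to 3.

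**Figure D1:**
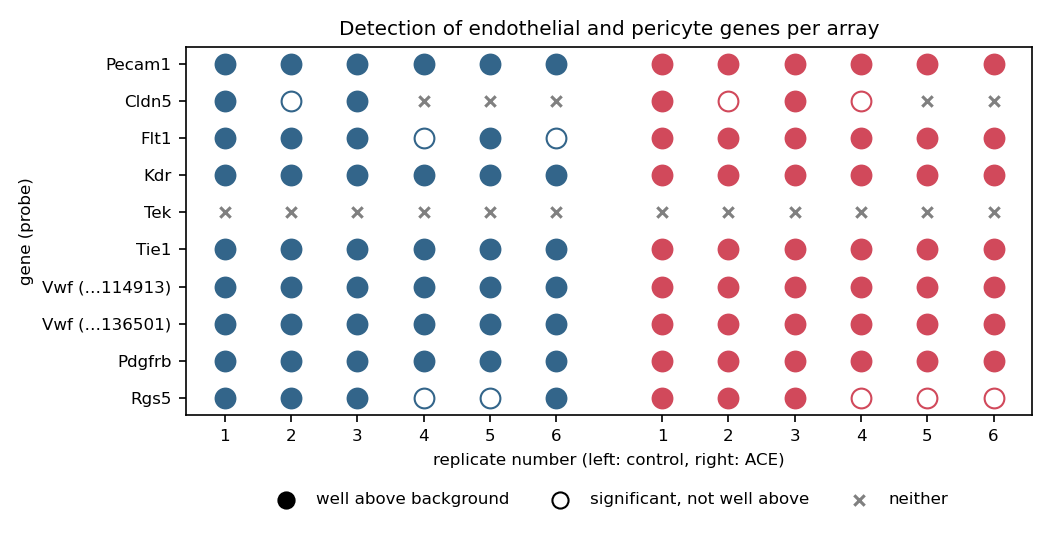
Detection of the 10 probes (rows) on each control and ACE array (columns, replicate number). Filled circles are well above background, open circles only significantly above it and crosses neither; 6 probes are filled on all 12 arrays and Tek on 0.

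For control versus ACE (CvA), signals were compared within pairs on the log2 scale after quantile normalisation, with limma and the replicate number as a block. Of the 10 probes, 8 passed the filter on dim probes, Cldn5 and Tek being left out. At a Benjamini-Hochberg adjusted p under 0.05, 0 of the 8 were called, as were 0% of all 23796 probes tested, and the adjusted p-values of the 8 ran from 0.260 to 0.911. At an unadjusted limma p under 0.05, 1 of the 8 (12.5%) was called, the second Vwf probe, against 16.6% of all probes tested. A single direction in all 6 pairs, which the exact paired rank test needs to reach its smallest p of 0.0312, was found for 0 of the 8 and for 11.6% of all probes tested. The estimates were higher in ACE for 3 probes and lower for 5, with a median of -0.07, beside -0.0050 over all probes tested. Without replicate 5 this median was 0.01.

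**Figure D2:**
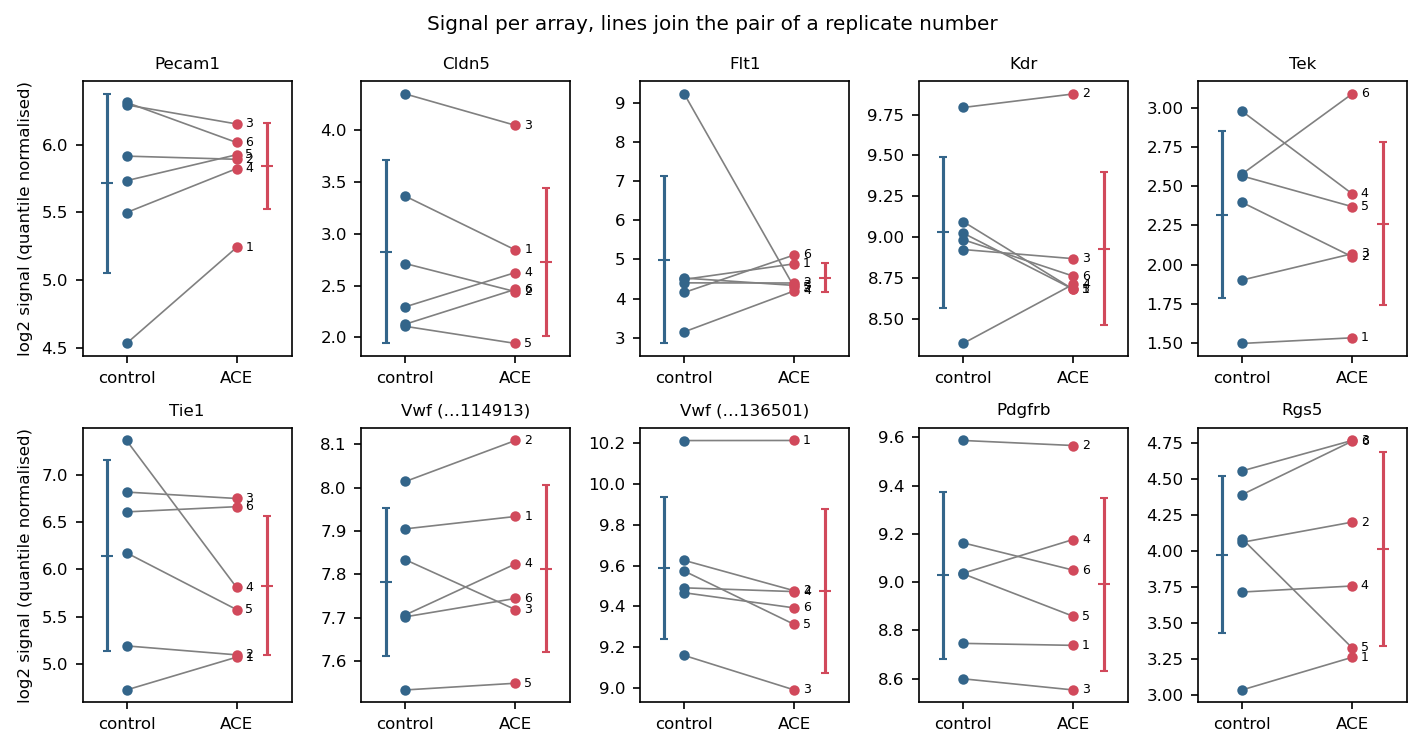
Normalised log2 signal of each probe on the 12 arrays; lines join the control and ACE array of a replicate (number at right), and the bars give the mean and SD of the 6 arrays of a group. Each panel has its own axis; the groups overlap in every panel, and the Flt1 control array of replicate 5 stands at 9.22.

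Kdr is the VEGF receptor that carries most of the growth signal, and its probe was well above background on all 12 arrays. Its normalised log2 signal in control ran from 8.35 over a median of 9.005 to 9.79, and in ACE from 8.68 over 8.74 to 9.88. Replicate 2 was the highest array of both groups and the ranges overlapped almost wholly. The group means were 9.03 ± 0.46 for control and 8.93 ± 0.47 for ACE (SD, n = 6), and the difference of -0.10 had a limma 95% interval from -0.35 to 0.16 (adjusted p = 0.660). The pairs were split, with ACE lower in 4 and higher in 2, and the difference ran from -0.19 without replicate 4 to -0.04 without replicate 5.

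Flt1 encodes VEGF receptor 1, which binds VEGF tightly and in its soluble form acts as a decoy. Its control signal ran from 3.15 over a median of 4.45 to 9.22, and its ACE signal from 4.20 over 4.37 to 5.11. The value of 9.22 belongs to control replicate 5 alone, and the next highest control array was at 4.52. The mean difference was -0.45, with an interval from -2.39 to 1.48 (limma adjusted p = 0.797). Without replicate 5 the difference was 0.44 (limma unadjusted p = 0.085), so its sign rests on that array. On the scanner scale the spot had a mean of 447 over 59 pixels with a median of 418, and on the other 11 arrays the spot mean was between 46.0 and 116. It carried no outlier flag. Within 2 rows and columns of it lay 24 spots, 9 of them dim, with a log2 signal under 7 in the median of the other control arrays. Of these 9 dim spots, 4 were more than 1 log2 unit above that median on control replicate 5, whereas 8.98% of all dim spots of the array were. The median excess was 0.84 over the 9 dim spots. The bright neighbours had a median excess of -0.01. The part of this neighbourhood in the Flt1 value was not tested.

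Tie1 is the partner of Tek in angiopoietin signalling and is made by endothelium from its earliest stages. Its log2 signal ran from 4.73 over a median of 6.39 to 7.36 in control and from 5.07 over 5.69 to 6.75 in ACE. The means were 6.15 ± 1.01 and 5.83 ± 0.74 (SD, n = 6). The difference was -0.32, with an interval from -0.91 to 0.27 (limma adjusted p = 0.535; exact sign-flip permutation p = 0.312, n = 6 pairs). ACE was lower in 4 of 6 pairs, and most of the mean came from replicate 4, at -1.55. Leaving out 1 experiment at a time gave differences from -0.45 to -0.07, and the smallest of them was the one without replicate 4. For Tek itself, whose probe gave no signal well above background in either group, no difference is given.

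Pecam1, an adhesion molecule at the contacts between endothelial cells, ran from 4.54 over 5.82 to 6.31 in control and from 5.24 over 5.91 to 6.15 in ACE. The control and ACE means were 5.71 ± 0.66 and 5.84 ± 0.32 (SD, n = 6). After normalisation, replicate 1 was the lowest array of both groups, and its pair also had the difference farthest from 0, 0.71. The mean difference of 0.13 had an interval from -0.19 to 0.44 (limma adjusted p = 0.647), with ACE higher in 3 pairs and lower in 3. Without replicate 1 the difference was 0.01, and with arrays aligned at the 75th percentile it was 0.0027. Cldn5 ran from 2.11 to 4.35 in control and from 1.94 to 4.05 in ACE, and was not tested. In both groups its highest array was that of replicate 3, and on most arrays its signal was too close to background to be ordered.

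Vwf encodes von Willebrand factor, the clotting protein that endothelial cells store and release. The first probe ran from 7.53 over 7.77 to 8.01 in control and from 7.55 over 7.78 to 8.11 in ACE, the narrowest spread of the 10 probes. Its difference was 0.03, with an interval from -0.06 to 0.12 (limma adjusted p = 0.686), and ACE was higher in 5 of 6 pairs. It changed sign, to -0.02, where arrays were aligned only at their 75th percentile. The second probe ran from 9.16 over 9.53 to 10.21 in control and from 8.99 over 9.43 to 10.21 in ACE. Its difference of -0.11 had an interval from -0.21 to -0.01 (limma unadjusted p = 0.032, adjusted p = 0.260), with ACE lower in 5 of 6 pairs and the pair of replicate 1 level. The unadjusted limma p was 0.080, 0.082, 0.077 and 0.054 without replicates 2, 3, 5 and 6. It was 0.056 with the deposited values, 0.078 with a random replicate block and 0.597 with no block.

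The estimates of the Vwf probes had opposite signs, though the interval of the first held 0 and both were negative, at -0.02 and -0.14, where arrays were aligned at the 75th percentile. The second minus the first gave a difference of differences of -0.14 ± 0.10 (SD, n = 6 pairs), negative in 6 of 6 pairs and between -0.28 and -0.03. This contrast was picked after both estimates had been seen, and is given as a description with no test. Over the 12 arrays, which share 6 cell lots, the 2 probes correlated at r = 0.37.

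**Figure D3:**
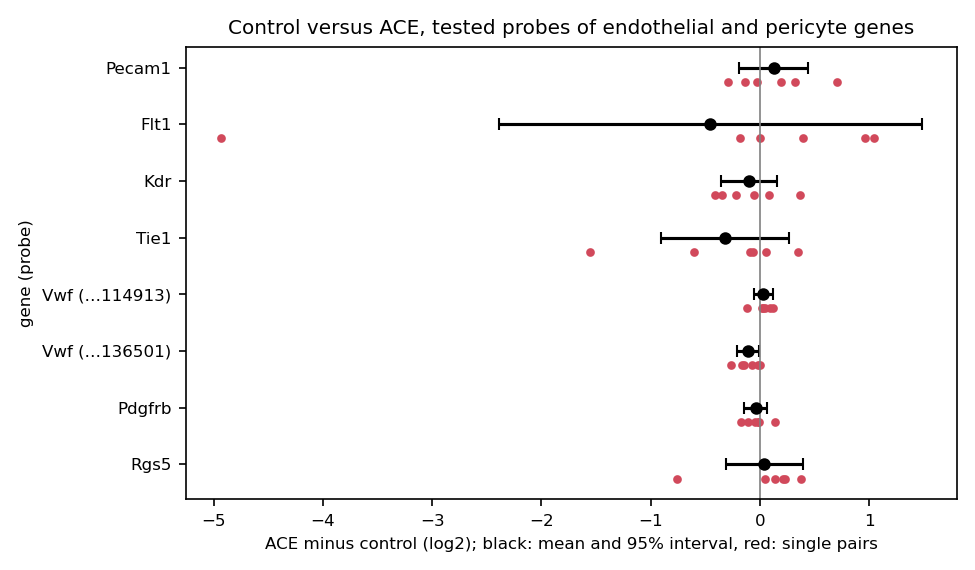
ACE minus control (log2) for the 8 tested probes: black points and bars are the mean and limma 95% interval, red points the 6 pairs. Of the intervals, only that of the second Vwf probe, -0.21 to -0.01, leaves out 0, and the pair at -4.93 is Flt1 in replicate 5.

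Of the pericyte genes, Pdgfrb, the PDGF-B receptor, was measured with small spread. It ran from 8.60 over 9.04 to 9.59 in control and from 8.55 over 8.95 to 9.57 in ACE. The means were 9.03 ± 0.35 and 8.99 ± 0.36 (SD, n = 6). The difference of -0.04 had an interval from -0.14 to 0.07 (limma adjusted p = 0.685), with ACE lower in 5 of 6 pairs. It ran from -0.07 without replicate 4 to -0.01 without replicate 5. It was 0.0047 with another background correction, normexp. The summed normalised signal of 6 fibroblast genes ran from 69127 to 117904 in control and from 66793 to 122405 in ACE, and replicate 2 was the highest array of each group, as it was for Pdgfrb. The part of fibroblasts in the Pdgfrb signal was not tested.

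Rgs5, a regulator of G protein signalling abundant in brain pericytes, was close to background. It ran from 3.03 over 4.07 to 4.55 in control and from 3.26 over 3.98 to 4.77 in ACE. The difference was 0.04, with an interval from -0.31 to 0.39 (limma adjusted p = 0.911). ACE was higher in 5 of 6 pairs and lower by 0.76 in replicate 5. Without replicate 5 the difference was 0.20 (limma unadjusted p = 0.010), and it was -0.07 where arrays were aligned at the 75th percentile.

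Levels differed between culture experiments for most of the probes. The SD of the 6 experiment means, each over a control and an ACE array, was 0.18 to 1.04 for the 8 tested probes, and exceeded the median of 0.29 over all probes tested for 7 of them. It also exceeded the SD of the pair differences for 7 of 8, Flt1 being the exception. Over all probes tested, the median SD of the pair differences was 0.125, likewise under the 0.29 of the experiment means. After normalisation, experiment 1 was low for Pecam1 (4.89) and Tie1 (4.90). It was high for the second Vwf probe (10.21), whose other experiments lay between 9.08 and 9.55. Before normalisation, neither Pecam1 nor Tie1 was lowest there. Pecam1 was at 63.5 in control and 92.8 in ACE, its highest ACE array. Tie1 was at 70.6 and 84.2, beside 38.0 and 37.3 in experiment 2. The part of normalisation in these low values was not tested. Experiment 2 was high for Kdr (9.84) and Pdgfrb (9.58). The arrays of experiment 1 were also the brightest, were scanned apart from the others and were read with an earlier version of the scanner software, which cannot be told apart from the cell lot.

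**Figure D4:**
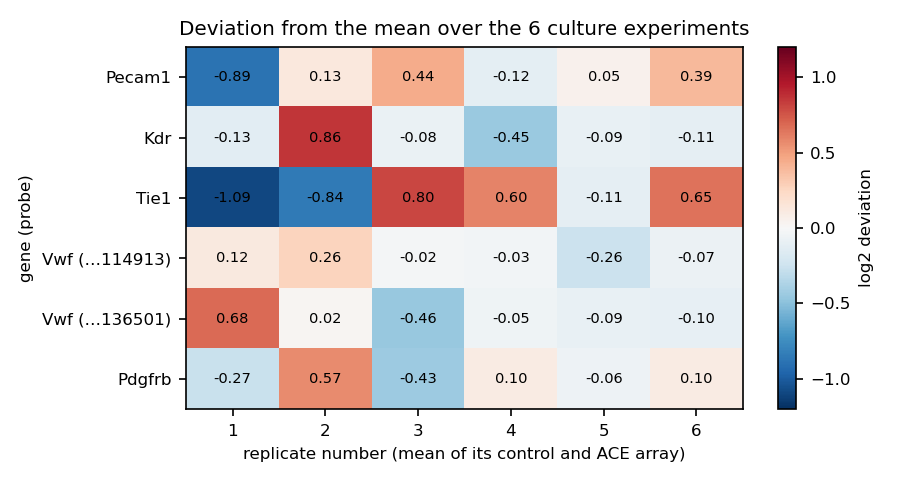
Deviation of each experiment (columns, mean of its control and ACE array) from the mean of the 6 experiments, in normalised log2 units. Rows are the 6 probes well above background on all arrays. Pecam1 and Tie1 are lowest in experiment 1, where the second Vwf probe is highest, and Kdr and Pdgfrb are highest in experiment 2.

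Across the 12 arrays, correlations between the vessel genes had both signs. Pecam1 and Rgs5 had r = 0.80 and Kdr and Pdgfrb r = 0.66, whereas Pecam1 and the second Vwf probe had r = -0.85 and Kdr and Tie1 r = -0.52. These are descriptions, on normalised values, over arrays that share cell lots and slides. Experiment 1 alone had the lowest mean of Pecam1 (4.89) and Rgs5 (3.15) and the highest of the second Vwf probe (10.21). Before normalisation, Rgs5 was not lowest there, at 27.7 in control and 31.1 in ACE. The part of experiment 1 in these correlations was not tested. The genes whose pattern was most like that of a member, among 16735 candidate probes well above background on all arrays, were Gas2l3, Usp4 and Ctla2a for Pecam1 (r = 0.95 each) and Cldn19, Olfml2a and Basp1 for Kdr (r = 0.97 each). For Tie1 they were Ndufaf4, Picalm and Bnip1 (r = 0.92 each), and for Pdgfrb Pabpc4, Lrrc3b and Fam89b (r = 0.97, 0.96 and 0.95). The first Vwf probe was closest to Pck2 (r = 0.96), Sod3 and Rtdr1 (r = 0.94 each). The second was closest to LOC100909776 (r = 1.00), LOC683498 and the tyrosine hydroxylase gene Th (r = 0.99 each). None of them was one of the 9 genes. Few of the candidate probes were, so this look-up cannot show whether the vessel genes vary together.

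Further endothelial genes were read in the same fit. Of 21 tested probes for 18 further endothelial genes, 0 passed the adjusted threshold and 4 the unadjusted one (19%, against 16.6% of all probes), 1 higher and 3 lower in ACE, with a median of -0.05. Cdh5, the cadherin of endothelial junctions, was at 7.54 ± 0.72 in control and 7.30 ± 0.74 in ACE (SD, n = 6). ACE was lower in 6 of 6 pairs, by 0.24 on average (limma unadjusted p = 0.00081, adjusted p = 0.143). Robo4 and Egfl7, also past the unadjusted threshold and named after their values were seen, had ACE lower in 6 of 6 pairs. Their differences were -0.22 and -0.10 (limma adjusted p = 0.179 and 0.204), and Egfl7 was near level in replicate 5, at -0.0014. Calcrl and Mmrn2, also named afterwards, had ACE higher in 5 of 6 pairs, by 0.22 and 0.12 (limma adjusted p = 0.332 and 0.546). With 1 replicate left out, their lowest differences were 0.14 and 0.05. Plvap, which forms the diaphragms of leaky capillaries, had a difference of 0.12 (limma adjusted p = 0.216), with ACE higher in 5 of 6 pairs. Icam2 stood at 0.51 (adjusted p = 0.382), or 0.22 without replicate 3, and Rasip1, a junction regulator, at 0.01 (adjusted p = 0.845), or -0.0028 without replicate 4.

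Of 11 tested probes for further pericyte genes, 0 passed the adjusted threshold and 2 the unadjusted one (18.2%), both lower in ACE, with a list median of 0.01. Cox4i2, a subunit of cytochrome c oxidase, was at 11.18 ± 0.63 in control and 10.91 ± 0.72 in ACE (SD, n = 6). ACE was lower in 6 of 6 pairs (difference -0.27, limma adjusted p = 0.147), though the pair of replicate 1 was level, at -0.00048. Notch3, named after its values were seen, had a difference of -0.17 (adjusted p = 0.299), or -0.11 without replicate 5. Mcam, Cspg4 and Foxs1 had 0.01, 0.05 and 0.25 (adjusted p = 0.935, 0.487 and 0.640), and 1 replicate moved each of them: Mcam was at -0.02 without replicate 2, Cspg4 at 0.02 without replicate 3 and Foxs1 at -0.01 without replicate 5. Des, also named afterwards, had the difference farthest from 0, -1.66 (adjusted p = 0.335), or -0.90 without replicate 2. Desmin is at the same time a skeletal muscle protein, and the 9 tested skeletal muscle probes had a median of -1.12. Of these 9, 3 (33.3%) passed the unadjusted threshold, all 3 lower in ACE. Separately counted, 3 of the 9 had ACE lower in 6 of 6 pairs, and these need not be the same probes. The summed signal of the 8 muscle genes ran from 1441 to 58992 in control and from 1242 to 17557 in ACE, and its highest control array was that of replicate 2. The part of muscle in the Des value was not tested.

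Ligands of these receptors were present. Vegfa, the ligand of Kdr and Flt1, was at 12.99 ± 0.21 in control and 13.05 ± 0.15 in ACE on its brightest probe (SD, n = 6; limma adjusted p = 0.462), and its 4 probes had differences between 0.06 and 0.12. With 1 replicate left out, the brightest ran from 0.04 to 0.08 and the dimmest from 0.0089 to 0.09. Pgf, the Flt1 ligand, had 0.03 on its brighter probe (adjusted p = 0.719), or 0.0068 to 0.06 with 1 replicate left out. Pdgfb, the Pdgfrb ligand, had 0.27 and 0.07 on its 2 probes (adjusted p = 0.470 and 0.692). Without replicate 5 these were 0.07 and 0.01. Of 19 tested probes on the list of ligands and co-receptors, 0 passed the adjusted threshold and 1 the unadjusted one (5.26%), with a median of 0.05. It was a probe of Flt4, the receptor of lymphatic and angiogenic endothelium (difference -0.15, adjusted p = 0.213, lower in 6 of 6 pairs). The other Flt4 probe stood at 0.21 (adjusted p = 0.550), or 0.03 without replicate 3.

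Junction and transport genes of the barrier, many of which neurons and glia also make, gave 0 of 19 tested probes past the adjusted threshold and 3 past the unadjusted one (15.8%), all 3 higher in ACE, with a median of 0.04. A dim probe of the tight junction gene Cldn12 had a difference of 0.51 (limma adjusted p = 0.143), higher in 6 of 6 pairs, and its brighter probe had 0.14 (adjusted p = 0.455), or 0.07 without replicate 5. The other 2 were probes of Lsr, the angulin at tricellular junctions, with 0.21 and 0.68 (adjusted p = 0.275 and 0.179). The probe at 0.68 was well above background on 3 of 6 control and 6 of 6 ACE arrays, so its difference is set against a control signal measured only in part. The glucose transporter Slc2a1 had -0.07 (adjusted p = 0.316). Tjp1 had -0.04 on its brighter probe (adjusted p = 0.603), or -0.01 without replicate 3, and 0.00445 on the other (adjusted p = 0.938). The Abcb1a probe, for the drug efflux pump of brain capillaries and named after its values were seen, was well above background on 0 of 12 arrays.

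**Figure D5:**
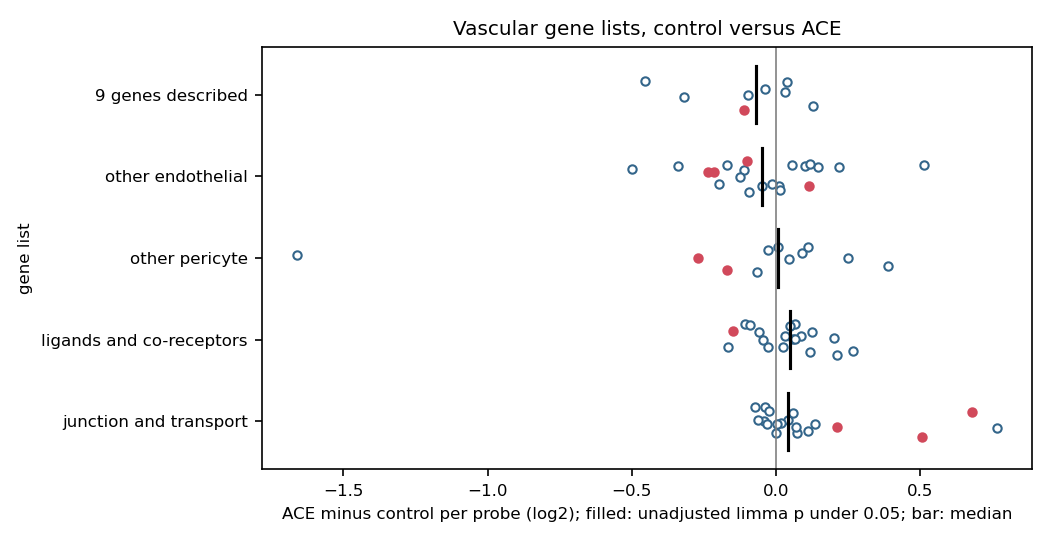
ACE minus control (log2) for every tested probe of the 9 genes and of 4 further vessel lists; filled points have an unadjusted limma p under 0.05 and bars mark list medians. The medians lie between -0.07 and 0.05, and the point at -1.66 is Des.

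Markers of other cells were read in the same comparison. Of 12 microglial probes, 3 passed the unadjusted threshold as higher and 1 as lower (33.3%), with a median of 0.08: Of the brightest, Aif1 had 0.19, higher in 6 of 6 pairs, and 0.10 on its other probe (limma adjusted p = 0.206 and 0.406), and Cd68 had 0.16, higher in 5 of 6 (adjusted p = 0.287). Without replicate 1 the other Aif1 probe was at 0.05 and Cd68 at 0.10. Cx3cr1 had -0.35, lower in 6 of 6 pairs (adjusted p = 0.147). Csf1r had 0.28 on 1 probe, higher in 6 of 6 pairs (adjusted p = 0.143), and -0.02 on its brighter probe (adjusted p = 0.949), lower in 4 of 6. Fibroblast and smooth muscle probes had 0 of 7 and 0 of 8 past the unadjusted threshold, with medians of 0.02 and -0.03. For astrocyte, neuronal, platelet and red cell probes the counts were 1 of 11, 1 of 7, 1 of 5 and 0 of 3, with medians of -0.07, 0.11, 0.04 and 0.10. The summed signal of the 8 microglial genes was 88940 to 113673 in control and 99109 to 123952 in ACE. The summed signal of the 9 vessel genes was 1936 to 2852 in control and 1810 to 2829 in ACE, lowest in replicate 3 and highest in replicate 2 in both groups. The part of other cells in the vessel gene values was not tested.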

How the data were processed

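Total RNA of 6 control and 6 ACE cultures was measured on 1-colour Agilent rat 4x44k arrays. Per the file headers, the authors extracted spot intensity values with Feature Extraction 11.0.1.1 (2 arrays of replicate 1) or 11.5.1.1 (the other 10), with background subtracted and no scaling between arrays. A table of log2 values deposited by the authors, quantile normalised and centred per probe, served as an alternative (r = 0.997 to 0.999 per array with the values computed here). The nicotine and imidacloprid cultures were not analysed here.

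Control spots were dropped and outlier-flagged spots set missing (447 probe values). Log2 processed intensity was quantile normalised in R 4.3.3, spots of a probe were averaged, and probes above the 20th percentile on at least 7 of 12 arrays with at least 4 pairs were kept (23796). limma 3.58.1 was fitted over all of them with the replicate number as a block, with a threshold of 0.05 on the Benjamini-Hochberg adjusted p-value. Exact two-sided signed-rank and sign-flip permutation tests over the 6 pairs were added. The pairing comes from the shared cell lots: the deviations of 2 arrays from their group means, 1 of each group, correlated at 0.449 to 0.912 with the same number and at -0.439 to 0.390 with different numbers. Each slide held 1 pair, and the pairs of replicates 4, 5 and 6 shared a scan batch. Gene names and positions come from the later of 2 design files, in which the probes of the 9 genes are the same, and the accessions of the 9 genes matched their current RefSeq symbols. In a test on simulated data, 88% of 200 probes changed by 1 log2 unit were recovered. The probes were simulated as independent. Smaller changes, of the size estimated for the 9 genes, were not simulated, so the test does not show how often they would be called. Figures used matplotlib 3.10.9 in Python 3.11.15.

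The genes and lists were chosen with earlier results of these data known. All probes of the 9 genes are named. From each other list, up to 4 genes were eligible: the 2 brightest, and the 2 with the largest difference among probes well above background on all arrays. For each probe of the 9 genes that was well above background on all arrays, the 3 most correlated named probes are given. Alternatives were a 75th percentile shift, normexp with an offset of 50, the deposited values, no filter, a filter on probes well above background on at least 6 arrays, no replicate block, a random block, outlier spots kept, each replicate left out, values within scan batches, and the looser detection flag. Leaving out each replicate for genes of the other lists was added after the data had been seen.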

Additional observations from a re-analysis of the deposited data

Results flagged for a closer look

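Single arrays that stood apart from the other 5 of their group were sought with Dixon's ratio in 20 groups (10 probes in control and in ACE), of which chance marks about 1 in 20. Flt1 in control replicate 5 was at 9.22, with the next control array at 4.52. After normalisation, Pecam1 in ACE replicate 1 was at 5.24, with the next ACE array at 5.82. Its control partner was also the lowest of its group. Before normalisation, that ACE array had the highest Pecam1 signal of its group, 92.8. Its control partner was then at 63.5 and not the lowest. Kdr in ACE replicate 2 was at 9.88, with the next ACE array at 8.87, and its control partner was also the highest of its group.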

How the results depend on the processing

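The count of probes past the adjusted limma threshold was 0 for the 9 genes under every setting run, and over all probes it was 5 with a random replicate block and 0 otherwise. The count of unadjusted calls among the 9 genes, 1 with the block, was 0 with the deposited values, with no replicate block and with a random replicate block, and 0 to 1 with 1 replicate left out. Without replicate 5 the 1 call was Rgs5 in place of Vwf. Without the replicate block, 81 probes in all passed the unadjusted threshold. The second Vwf probe had 1 direction in all 6 pairs, a count of 1, under the 75th percentile shift, under normexp and with outlier spots kept, its pair of replicate 1 being near 0. For single probes, 81 of the alternative differences kept their direction and 7 reversed, leaving out 32 that repeat the estimate because a filter or block changes only its error. Flt1 ran from -0.75 to 0.44 and Rgs5 from -0.028 to 0.20 with 1 replicate left out. The 75th percentile shift gave -0.020 for the first Vwf probe and -0.067 for Rgs5, and moved the median of all probes to -0.03. Normexp gave 0.0047 for Pdgfrb and -0.0034 for Rgs5. Within the scan batch that held 3 pairs, Rgs5 was at -0.11, and the other batches held 1 pair each. The cause of these shifts was not tested. Signal over background limits Cldn5, Tek and Rgs5 most.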
